A study of Rattus norvegicus with 24 samples.

Results

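MicroRNAs (miRNAs) of the PVN, a nucleus of the hypothalamus, were compared between rats that received electroacupuncture (EA) around a partial hepatectomy (HT + EA) and rats with the hepatectomy alone (HT). The comparison takes 6 of the 24 small RNA libraries of the series, 3 from the HT + EA group and 3 from the HT group, and it asks which miRNAs differed after surgery when needles had also delivered current. All animals were male Sprague-Dawley rats, 7 weeks old when bought and kept for a week before the experiment. Both groups had part of the left liver lobe removed under isoflurane and both were held awake in the same restraint, and the HT + EA rats also received current through needles placed on one side at the Zusanli and Sanyinjiao points of the hind limb, on the day before surgery and again straight after it. Tissue was taken 1 day after the last session. The normal control (NC) group had no hepatectomy, and the HT + sham EA (SEA) group had hepatectomy and the same needles without current; the amygdala nucleus CEA was sampled from the same 4 groups. The methods state that the brain samples came from different animals of the same batch, and not which rat gave which library, so p-values measure the spread between these libraries only.

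A miRNA is a short RNA that guides the Argonaute protein to messenger RNAs and lowers their translation or stability. It is cut from a hairpin whose arms can each give a mature miRNA, named 5p and 3p, and the bases counted as the seed at its 5′ end do most of the target pairing, so miRNAs with the same seed form a family. The PVN holds the neurons that release corticotropin-releasing hormone and start the hypothalamic–pituitary–adrenal (HPA) axis, the hormone cascade that answers surgical stress. Among the miRNAs used as cell markers, miR-7a and miR-375 are rich in neuroendocrine cells, miR-219a and miR-338 in oligodendrocytes, miR-223 in granulocytes and other myeloid cells, miR-144, miR-451 and miR-486 in red cells, and the miR-200 family in epithelium.

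The label of the tissue was checked against these markers. In the HT libraries, miR-7a-5p took 13.3% of all reads counted on miRNAs and in the HT + EA libraries 14.8%, more than any other miRNA. Next came miR-9a-5p, with 9.74% and 9.61% and with nearly the counts of miR-9b-3p, then miR-148a-3p with 8.06% and 7.42% and miR-127-3p with 4.37% and 4.92%, none of them called. The liver marker miR-122-5p lay between 1.08 and 12.4 counts per 1000000 counted reads (CPM) over the 6 libraries, whereas miR-34c-5p, a marker of ciliated cells, was present at 2251 to 2708 CPM in both groups. Total counts were 8789556 to 11050725 in the HT group and 12134529 to 14828269 in the HT + EA group, so the HT + EA libraries were all deeper. The floor, a count of 3, equals 0.271 to 0.341 CPM in the HT libraries and 0.202 to 0.247 CPM in the HT + EA libraries. These limits cover counting error only.

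The sequences of the miRNAs that the results turn on are printed first, 5′ to 3′, with the seed (bases 2 to 8) in capitals. They are mature sequences from RefSeq on the GRCr8 build, in which 636 of the 703 known miRNAs of the table were found. The first set holds miRNAs with an adjusted p under 0.05, and miR-10a-5p as the close relative of miR-10b-5p.
miR-223-3p: uGUCAGUUugucaaauacccc
miR-10b-5p: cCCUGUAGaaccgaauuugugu
miR-10a-5p: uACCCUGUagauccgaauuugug
miR-219a-5p: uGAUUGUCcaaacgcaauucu
miR-144-3p: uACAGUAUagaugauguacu
miR-493-5p: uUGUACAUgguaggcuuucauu
No mature entry was matched for miR-136-5p, miR-200a-3p or miR-200b-3p, which are named only.

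The second set is the miR-29 family, which shares the seed AGCACCA, followed by miR-3587 and miR-3556b. The last 2 are listed because their counts could not be told from those of miR-29b-3p and miR-29c-3p.
miR-29a-3p: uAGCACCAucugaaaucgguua
miR-29b-3p: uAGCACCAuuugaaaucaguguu
miR-29c-3p: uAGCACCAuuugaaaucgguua
miR-3587: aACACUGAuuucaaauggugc
miR-3556b: aCCGAUUUcaaauggugcua

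The third set shares the seed AUUGCAC and is shown because its members were called in opposite directions.
miR-32-5p: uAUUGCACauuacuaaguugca
miR-25-3p: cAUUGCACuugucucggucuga
miR-92a-3p: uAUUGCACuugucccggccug
miR-92b-3p: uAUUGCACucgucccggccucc
miR-363-3p: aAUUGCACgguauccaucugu

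After EA, 55 miRNAs rose and 57 fell in the PVN, out of 985 with at least 1 count in the 6 libraries. Among those with an adjusted p under 0.05, the largest changes were rises of the myeloid miR-223-3p and of miR-10b-5p, which lies in a Hox gene cluster, while miR-219a-5p of oligodendrocytes, miR-29b-3p, miR-144-3p and the miRNAs miR-136-5p and miR-493-5p of the imprinted Dlk1-Dio3 locus fell. A miRNA was called at an unadjusted p under 0.05 in edgeR's quasi-likelihood test, the threshold used in the study, which called 11.4% of the miRNAs tested, 5.58% higher and 5.79% lower. At a Benjamini-Hochberg adjusted p under 0.05 the same test called 10 (1.02%), 4 higher and 6 lower. With 3 libraries against 3, an exact permutation test of a single miRNA cannot go below p = 0.1, so each p comes from the fit across all miRNAs. The spread of a miRNA took 23.3 degrees of freedom from all miRNAs and 4 from its own libraries, so small p-values lean on the other miRNAs. With edgeR's filterByExpr, which leaves out miRNAs with few counts, it took 3.96 from all miRNAs. In that fit 4 miRNAs had an adjusted p under 0.05. With DESeq2's size factors in edgeR the split was 38 higher and 68 lower, so that 35.8% of calls were higher in place of 49.1%. With plain library totals it was 44 and 69.

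Most changes were small. The median size of the log2 fold change over the 112 called miRNAs was 0.51, and among those over 1000 CPM in a group it was 0.29. The HT and HT + EA libraries did not overlap for 82 of the 112, and for 155 of all 985 miRNAs (15.7%), which include the 82. The 112 were called on the same libraries, so a larger share without overlap among them follows from the call. The calls came mainly from known miRNAs, of which 103 of 674 (15.3%) were called, against 9 of 311 (2.89%) predicted miRNAs that carry only a number. Among the 112 names are 7 pairs whose counts lay within 3% of each other in every library, and each pair is 1 measurement.

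**Figure D1:**
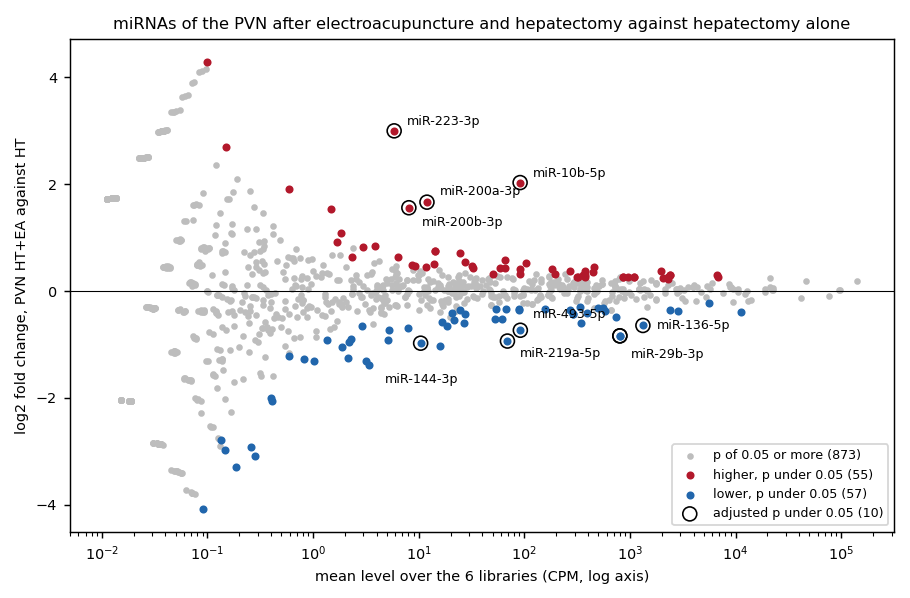
Each point is 1 of the 985 miRNAs tested, with its mean CPM over the 6 libraries on a log axis and its log2 fold change of HT + EA against HT; red and blue points are the 55 higher and 57 lower calls and rings mark the 10 at an adjusted p under 0.05 (miR-29b-3p and miR-3587 lie on the same spot). The called changes are smaller at high levels, with a median size of 0.29 over 1000 CPM against 0.51 over all 112.

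Myeloid miR-223-3p showed the largest rise of those with an adjusted p under 0.05. It was at 1.02, 1.40 and 1.54 CPM in the HT libraries and at 10.2, 8.98 and 11.9 CPM in the HT + EA libraries, from 9 to 17 and from 109 to 177 counts. Every HT + EA library stood above every HT library, and the fitted fold between the groups was 7.98. The log2 fold change was 3.0 (standard error 0.27), with a Benjamini-Hochberg adjusted p of 9.2e-09 by edgeR's quasi-likelihood test, and it stayed between 2.85 and 3.08 in all 17 other fits. The largest adjusted p of those fits was 5.25e-04, by the same test with filterByExpr. The level was higher still in the NC group, at 22.3, 89.0 and 81.2 CPM, and in the SEA group it was 11.1, 1.58 and 1.49 CPM. Thus 1 of the 3 sham libraries was at the HT + EA level and the other 2 at the HT level. The passenger arm miR-223-5p stayed at 0.228 to 0.412 CPM in both groups, near the limit that a count of 3 sets.

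miR-223-3p was the only 1 of 14 tested members of the myeloid and inflammation list that was called, where 5.58% of all miRNAs were higher. The other myeloid markers were not called. miR-142-3p was at 35.3, 38.4 and 38.0 CPM in the HT libraries and at 35.2, 28.7 and 36.1 CPM in the HT + EA libraries (log2 fold change -0.12, standard error 0.16), and miR-142-5p had a log2 fold change of 0.11. miR-146a-5p, which restrains inflammatory signalling, had a log2 fold change of 0.12 and its relative miR-146b-5p 0.15. The summed level of the list was 6936 to 8053 CPM in the HT group and 7279 to 7662 CPM in the HT + EA group, which overlap. In bulk tissue, fewer cells of a type and less RNA per cell cannot be told apart.

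The miRNAs of the Hox clusters, which are known from the posterior body and hindbrain, held the other large rise. miR-10b-5p was at 36.9, 28.0 and 45.1 CPM in the HT libraries and at 128, 135 and 174 CPM in the HT + EA libraries. The groups were well apart, and the fitted fold was 4.08. On the log2 scale the rise was 2.03 (standard error 0.17), at a Benjamini-Hochberg adjusted p of 1.2e-09 by edgeR's quasi-likelihood test. By the same test with filterByExpr the adjusted p was 0.00177, the largest of the 17 other fits. In the NC group the level ranged widely, at 343, 43.8 and 196 CPM. The SEA libraries again split, with 1 at 134 CPM within the HT + EA range and the others at 31.0 and 30.6 CPM.

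Its relative miR-10a-5p, from another Hox cluster, was at 61.7, 48.6 and 51.3 CPM in the HT libraries and at 75.4, 80.0 and 80.9 CPM in the HT + EA libraries. The groups did not overlap, but the change was much smaller, by 0.58 on the log2 scale, standard error 0.15, and a Benjamini-Hochberg adjusted p of 0.054 by edgeR's quasi-likelihood test. These 2 were called higher of 7 tested members of the list, where 5.58% of all miRNAs were higher, and they are the only 2 with at least 500 counts over the 6 libraries. The other 5 were not called. miR-196a-5p, miR-196b-5p and miR-615 were at 0 in all HT libraries, so they entered the test only through the HT + EA group and their direction was fixed. miR-196a-5p and miR-196b-5p stayed at no more than 0.0824 CPM in the HT + EA libraries, under the limit of 3 counts, and the minor arms miR-10a-3p and miR-10b-3p had 13 counts each over the 6 libraries. The summed Hox level was 76.8 to 98.6 CPM in the HT group and 203 to 256 CPM in the HT + EA group.

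**Figure D2:**
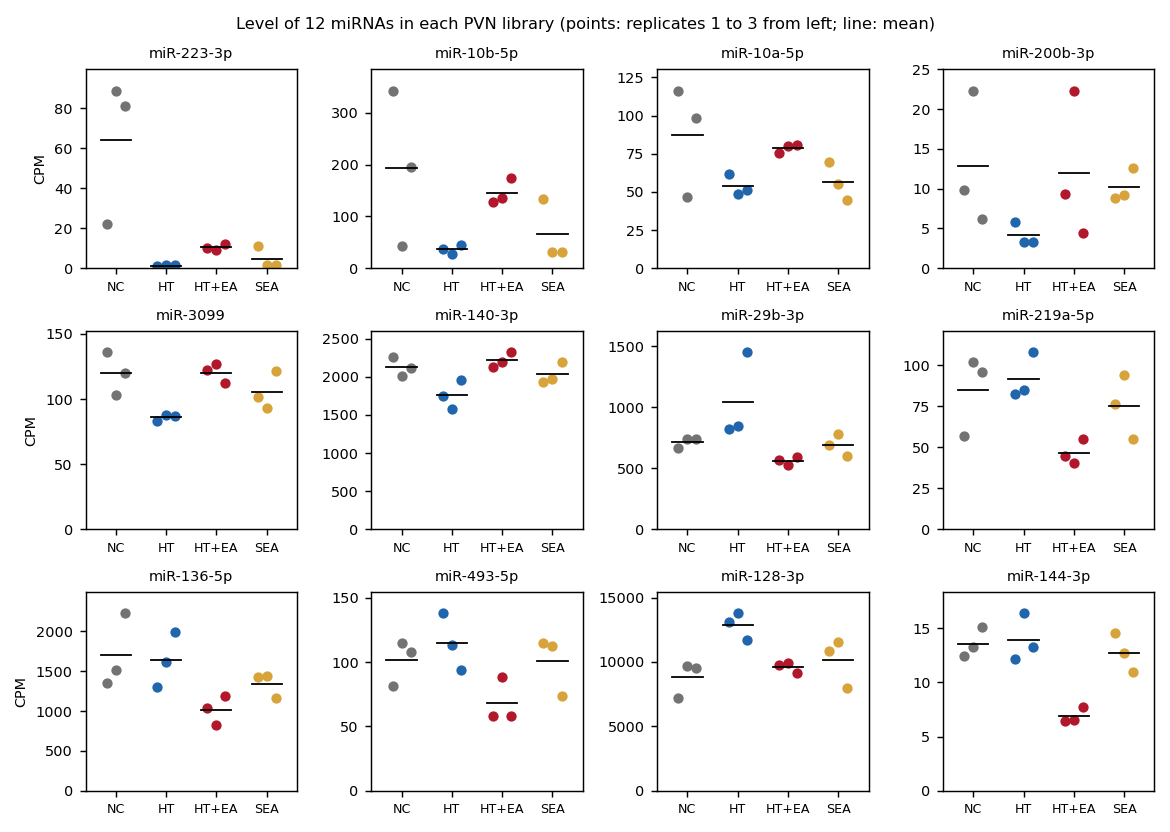
The level in CPM (axis from 0) of 12 miRNAs in each PVN library, with replicates 1 to 3 from left to right within the NC, HT, HT + EA and SEA groups and a line at the group mean (n = 3). For miR-223-3p and miR-10b-5p the HT + EA points all lie above the HT points and 1 sham point lies with them, while for miR-29b-3p the third HT point (1455 CPM) stands far above the other 2.

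Several epithelial miRNAs rose, unevenly across the libraries. Of 11 tested members of the epithelial and sensory clusters, 7 were higher and none lower, against the 5.58% of all miRNAs that were higher, and the median log2 fold change of the list was 0.83 against 0.02 over all miRNAs. miR-200a-3p was at 7.40, 4.31 and 5.70 CPM in the HT libraries and at 10.8, 38.3 and 5.33 CPM in the HT + EA libraries. The second HT + EA library was far above the other 2, and the third lay within the HT range, so the groups overlap. miR-200a-3p had a log2 fold change of 1.66 (standard error 0.41, Benjamini-Hochberg adjusted p 0.034 by edgeR's quasi-likelihood test), and without that library it was 0.48 and not called. Its adjusted p was under 0.05 in 9 of 17 other fits and at most 0.703, and that of miR-200b-3p in 9 of 17 and at most 0.557. With edgeR's robust prior and all 6 libraries neither miR-200a-3p nor miR-200b-3p was called, and 3 of the 11 members were.

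miR-200b-3p followed the same order, at 5.80, 3.34 and 3.26 CPM in the HT libraries and at 9.29, 22.3 and 4.38 CPM in the HT + EA libraries. Its log2 fold change was 1.56 (standard error 0.37, Benjamini-Hochberg adjusted p 0.030 by edgeR's quasi-likelihood test) and 0.73 without the second HT + EA library. The other called members were miR-429, miR-200c-3p, miR-200a-5p, miR-182 and miR-183-5p, with log2 fold changes from 0.71 to 1.54. miR-182 and miR-183-5p come from the sensory cluster on chromosome 4, with miR-96-5p as its remaining tested member, and were highest in the same library, at 44.2 and 27.8 CPM. miR-141-3p, the partner of miR-200c in 1 hairpin cluster, had 46 counts over the 6 libraries and was not called. When the second HT + EA library was left out, 1 of the 11 members was called in place of 7. The summed level of the list was 57.7, 51.5 and 41.9 CPM in the HT group and 75.3, 157 and 51.9 CPM in the HT + EA group, and the NC group also had 1 library at 167 CPM beside 2 near 71 CPM. The cause of that library's level was not tested.

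The miR-29 family, known for lowering collagen and other extracellular matrix messages, fell in part. miR-29b-3p was at 826, 845 and 1455 CPM in the HT libraries and at 566, 527 and 596 CPM in the HT + EA libraries. The groups did not overlap, and the third HT library was the highest by far. Its log2 fold change was -0.84 (standard error 0.14, Benjamini-Hochberg adjusted p 5.1e-04 by edgeR's quasi-likelihood test) and -0.58, still called, without the third HT library. The adjusted p was over 0.05 in 3 of 17 other fits and at most 0.13. miR-3587 had nearly the same count in every library and is not a second measurement: on GRCr8 its mature sequence lies at chr4:60618342-60618362 on the plus strand, opposite a copy of miR-29b-3p at chr4:60618342-60618364 on the minus strand, an overlap of 21 bases. A second copy of miR-29b-3p lies at chr13:109098882-109098904 on the plus strand, beside miR-29c.

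The relatives of miR-29b-3p that carry the same seed did not change by the same amount. miR-29a-3p, the most abundant, was at 4339, 4537 and 5395 CPM in the HT libraries and at 4783, 4737 and 4224 CPM in the HT + EA libraries. These ranges overlap and the log2 fold change was -0.02 (standard error 0.10). miR-29c-3p, at 86.6, 83.2 and 131 CPM against 74.4, 76.5 and 79.3 CPM, had a log2 fold change of -0.34 (standard error 0.15) and was called (Benjamini-Hochberg adjusted p 0.34 by edgeR's quasi-likelihood test), with miR-3556b on the opposite strand at the same place. Its other arm miR-29c-5p fell by 0.60 on the log2 scale, from 266, 324 and 661 CPM to 263, 256 and 276 CPM with overlap. miR-29b-5p had a log2 fold change of 0.02. In all, 4 of 7 tested names of the family were lower and none higher, where 5.79% of all miRNAs were lower, and these names stand for 3 separate measurements. The third HT library was highest for each of them, and without it 2 names were lower, miR-29b-3p and miR-3587, which are 1 measurement.

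Oligodendrocyte miRNAs moved in both directions. miR-219a-5p, which drives oligodendrocyte maturation, was at 82.5, 84.8 and 108 CPM in the HT libraries and at 44.6, 40.6 and 54.8 CPM in the HT + EA libraries. The groups were clearly apart, with a fitted fold of 1.91 towards HT. miR-219a-5p had a log2 fold change of -0.94 (standard error 0.15, Benjamini-Hochberg adjusted p 4.2e-04 by edgeR's quasi-likelihood test), and it stayed between -1.10 and -0.85 with an adjusted p of at most 0.027 in all 17 other fits. The SEA libraries were at 76.3, 93.8 and 55.0 CPM, the first 2 in the HT range or near it and the last just above the HT + EA range.

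The 3p arm of a hairpin that also gives it, miR-219a-2-3p, was far more abundant and rose, from 2173, 2294 and 2132 CPM to 2278, 2917 and 2712 CPM. The groups overlap and the log2 change was small, 0.29 (standard error 0.11, Benjamini-Hochberg adjusted p 0.23 by edgeR's quasi-likelihood test). Its counts were within 3% of those of miR-219b, which lies on the other strand at the same place. miR-338-3p, the other oligodendrocyte marker, fell by 0.43 on the log2 scale (standard error 0.15), from 261, 287 and 451 CPM to 225, 278 and 217 CPM, again with the third HT library highest and with overlap; its counts equal those of miR-3065-5p on the opposite strand. Of 6 tested names of this list, 2 were higher and 2 lower, where 5.58% and 5.79% of all miRNAs were. The higher names, 1 measurement, were not called with DESeq2 or without HT + EA replicate 2 or 3. The summed level was 5004 to 5277 CPM in the HT group and 5147 to 6560 CPM in the HT + EA group.

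Of the Dlk1-Dio3 locus on chromosome 6, an imprinted region that gives many brain miRNAs, 92 members were tested. Of these, 12 were called, 5 higher and 7 lower, where 15.3% of known miRNAs and 11.4% of all miRNAs were called. Among the 5 higher names, miR-409a-3p and miR-409b lie on opposite strands of the same place and are 1 measurement. The higher calls ran from 2 to 12 under the other settings and from 2 to 13 with 1 library left out (2 without HT + EA replicate 3, 10 and 13 without HT replicate 1 and 2), and the lower calls from 6 to 8 and from 6 to 11 (11 without HT replicate 1). The median log2 fold change was 0.00. miR-136-5p was at 1306, 1614 and 1993 CPM in the HT libraries and at 1039, 826 and 1182 CPM in the HT + EA libraries, with no overlap. Its log2 fold change was -0.64 (standard error 0.13, Benjamini-Hochberg adjusted p 0.0056 by edgeR's quasi-likelihood test), and the adjusted p was over 0.05 in 5 of 17 other fits, at most 0.155. The other arm miR-136-3p, at 2056 to 2320 CPM in the HT group and 2043 to 2114 CPM in the HT + EA group, had a log2 fold change of -0.03.

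Both arms of miR-493 fell. miR-493-5p was at 138, 113 and 93.8 CPM in the HT libraries and at 58.3, 88.3 and 58.1 CPM in the HT + EA libraries, apart but with neighbouring extremes, and its log2 fold change was -0.73 (standard error 0.17, Benjamini-Hochberg adjusted p 0.030 by edgeR's quasi-likelihood test), and the adjusted p was over 0.05 in 6 of 17 other fits, at most 0.213. miR-493-3p had a log2 fold change of -0.52. miR-376a-3p, at 20.7, 21.0 and 27.1 CPM against 13.2, 12.3 and 16.9 CPM, fell by 0.66 on the log2 scale. In contrast, miR-379-3p rose from 148, 177 and 156 CPM to 217, 207 and 202 CPM and miR-411-3p from 316, 358 and 328 CPM to 460, 406 and 407 CPM, with log2 fold changes of 0.41 and 0.38. Their more abundant arms miR-379-5p and miR-411-5p had log2 fold changes of 0.12 and 0.11 and were not called.

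Both arms were tested for 237 hairpins, beside 15.3% of all known miRNAs called. In 5 hairpins both arms were called, in the same direction for miR-200a, miR-29c and miR-493 and in opposite directions for miR-139 and miR-330. In 59 hairpins 1 arm was called, and the other arm had the same sign in 32.

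**Figure D3:**
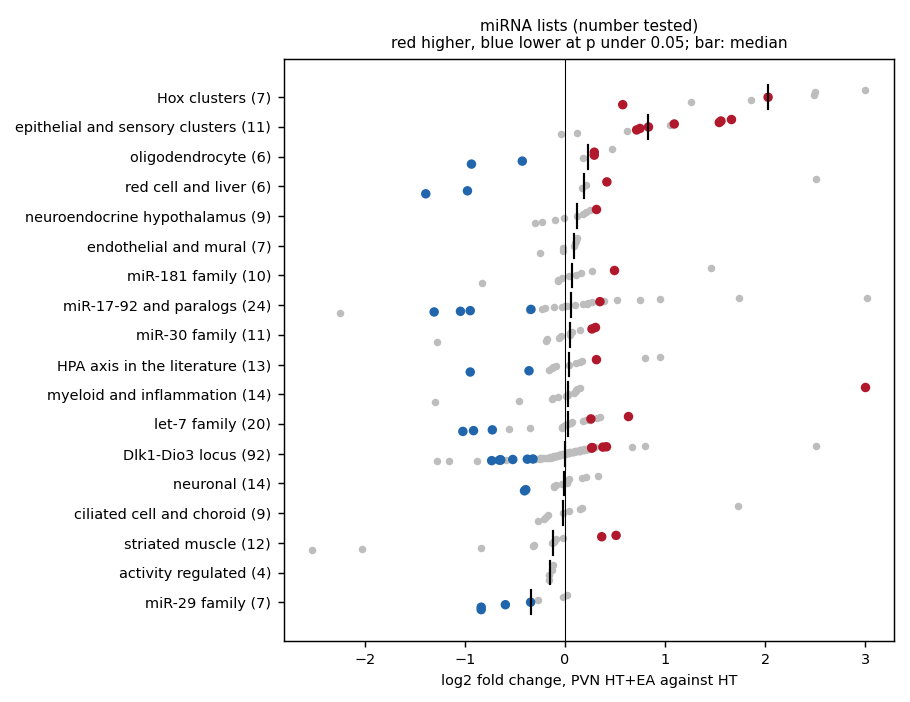
The log2 fold change of HT + EA against HT for each tested member of the 18 miRNA lists, sorted by the list median (bar), with higher calls in red and lower calls in blue. The epithelial list lies to the right with a median of 0.83 and the miR-29 family to the left at -0.34; the Hox median of 2.03 counts 3 members at 0 in all HT libraries and is 1.30 over the 2 members with at least 500 counts.

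Neuronal miRNAs showed small changes. miR-128-3p, abundant in neurons, was at 13100, 13780 and 11730 CPM in the HT libraries and at 9775, 9892 and 9155 CPM in the HT + EA libraries. The groups did not overlap and miR-128-3p fell by 0.39 in log2 terms (standard error 0.10, Benjamini-Hochberg adjusted p 0.054 by edgeR's quasi-likelihood test). miR-138-5p, which acts at dendritic spines, was the other of the 2 members called lower among 14 tested, where 5.79% of all miRNAs were lower, with a log2 fold change of -0.41. miR-124-3p and miR-9a-5p, the classic neuronal miRNAs, had log2 fold changes of 0.04 and 0.02. The 4 activity-regulated miRNAs of the miR-132 and miR-212 hairpins lay between -0.16 and -0.12 and none was called, while 1 was lower with DESeq2 and 2 were without HT replicate 3.

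Neuroendocrine and HPA axis miRNAs were described next. miR-375-3p rose from 93.9, 76.4 and 77.6 CPM to 114, 89.1 and 98.8 CPM, overlapping at 1 library, by 0.31 on the log2 scale (standard error 0.15, Benjamini-Hochberg adjusted p 0.415 by edgeR's quasi-likelihood test). It was the only 1 of 9 tested neuroendocrine members that was called, where 11.4% of all miRNAs and 15.3% of known miRNAs were. Under DESeq2, or without HT + EA replicate 1 or HT replicate 2, the list had no higher call, without HT replicate 3 it had 3, and the lower calls ran from 0 to 2. miR-7a-5p was at 147600, 127500 and 125400 CPM in the HT libraries and at 152500, 155600 and 137300 CPM in the HT + EA libraries, with overlap, and its log2 fold change of 0.18 (standard error 0.10) was not called. Of 13 miRNAs tied to the HPA axis in the literature, miR-375-3p was higher and miR-34a-5p and miR-18a-5p were lower. Beside this, 11.4% of all miRNAs and 15.3% of known miRNAs were called either way. With DESeq2 the list kept 1 lower call. miR-34a-5p fell from 253, 305 and 366 CPM to 218, 240 and 240 CPM without overlap (log2 fold change -0.36, standard error 0.13), and miR-18a-5p, reported to act on the glucocorticoid receptor, had a log2 fold change of -0.95 that rested on the third HT library at 5.70 CPM beside 1.59 and 1.40 CPM in the other 2.

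Among red cell and liver miRNAs, single members went different ways. miR-144-3p was at 12.2, 16.4 and 13.3 CPM in the HT libraries and at 6.46, 6.51 and 7.76 CPM in the HT + EA libraries. The groups were apart and the log2 fold change of miR-144-3p was -0.98 (standard error 0.21, Benjamini-Hochberg adjusted p 0.011 by edgeR's quasi-likelihood test). The adjusted p of miR-144-3p was under 0.05 in 15 of 17 other fits and at most 0.0551. Its other arm miR-144-5p, at 8.42 to 10.2 CPM against 7.49 to 13.5 CPM, had a log2 fold change of 0.21, and miR-451-5p, made beside it in red cells, 0.17. miR-486 rose from 74.2, 83.5 and 77.5 CPM to 102, 109 and 95.8 CPM without overlap (log2 fold change 0.42). The liver miRNA miR-122-5p was called lower with the first HT library at 12.4 CPM, beside 1.08 and 1.18 CPM in the other 2 and 1.35 to 2.45 CPM after EA, and without that library the log2 fold change was 0.78 and not called.

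The remaining lists were described by their counts, to be read against the 5.58% of all miRNAs that were higher and the 5.79% that were lower. None of the 7 endothelial and mural miRNAs or the 9 miRNAs of ciliated cells and choroid was called, and their summed levels overlapped between the groups. Of 12 striated muscle miRNAs 2 were higher (miR-1b and miR-206-3p, both with overlap), of 20 let-7 miRNAs 2 were higher and 3 lower, of 11 miR-30 miRNAs 2 were higher and of 10 miR-181 miRNAs 1 was higher. The muscle calls fell to 0 with filterByExpr and all libraries kept, and without HT + EA replicate 3 or HT replicate 2, the higher let-7 calls ran from 0 without HT + EA replicate 2 to 5 without HT replicate 2, and the miR-181 call was lost with DESeq2 and without HT + EA replicate 1 or 3 or HT replicate 2. miR-30c-5p, the called member with the highest level, was at 6035, 6097 and 5996 CPM in the HT libraries and at 7617, 7046 and 7232 CPM in the HT + EA libraries, 0.30 apart in log2 (standard error 0.10). Of 24 members of miR-17-92 and its paralogs 1 was higher and 4 lower, with 3 higher without HT replicate 1 and 2 lower with filterByExpr. On chromosome 15, where that cluster lies, miR-17-1-3p, miR-18a-5p and miR-19a-3p were lower, all under 6 CPM.

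Further miRNAs changed without belonging to a list. miR-3099 was at 83.0, 88.0 and 86.8 CPM in the HT libraries and at 122, 127 and 112 CPM in the HT + EA libraries, tight groups that lay 0.52 apart in log2 (standard error 0.13). miR-140-3p, best known from cartilage, rose from 1743, 1574 and 1952 CPM to 2132, 2195 and 2326 CPM and miR-653-5p from 435, 397 and 328 CPM to 583, 488 and 493 CPM, with log2 fold changes of 0.37 and 0.45. miR-203b-5p rose by 0.55 on the log2 scale and lost its call without the third HT + EA library. It lies opposite miR-203a-3p at the same place, which was also called higher, by 0.47 on the log2 scale. Over the 6 libraries they had 1985 and 2287 counts, and whether they share reads was not tested. miR-153-3p, which acts on synaptic vesicle release, fell from 742, 788 and 1108 CPM to 666, 485 and 683 CPM, with a log2 fold change of -0.48.

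Members of the AUUGCAC seed family printed above were called in opposite directions. miR-32-5p was at 51.8, 62.6 and 76.1 CPM in the HT libraries and at 42.5, 39.0 and 47.1 CPM in the HT + EA libraries, while miR-92b-3p was at 344, 402 and 455 CPM and at 509, 472 and 506 CPM. Neither pair of groups overlapped. miR-32-5p fell by 0.52 on the log2 scale (standard error 0.15) and miR-92b-3p rose by 0.35 (standard error 0.12). miR-25-3p, with 27570 counts over the 6 libraries beside 31875 for miR-92b-3p, was at 0.18 and not called. Of 64 seed groups with at least 2 members tested, where 15.3% of known miRNAs were called, 7 held at least 2 called: 3 with all calls lower (miR-29b and miR-29c, miR-193a and miR-193b, miR-326 and miR-330), 2 with all calls higher (miR-125a and miR-351, miR-1b and miR-206) and 2 with both directions. Groups within the same seed share a target site and, where the sequences are close, may share reads.

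The base composition of the called miRNAs was compared. Of the 93 called miRNAs with a mature sequence, the 46 higher had a median GC content of 50% and the 47 lower of 43.5%, against 47.8% over the 609 tested, with a median length of 22 bases in each set. Among 359 miRNAs with at least 500 counts, the 76 under 40% GC had a median log2 fold change of -0.08, with 2 higher and 15 lower calls, and the 128 from 40% to 50% had 0.04, with 17 higher and 6 lower. The 112 from 50% to 60% and the 43 above had medians of 0.08 each, with 14 and 6 higher and 10 and 4 lower. Across these miRNAs the log2 fold change and the GC content had a Spearman's rho of 0.22 (Pearson's r = 0.17), given as a description since they share the same libraries. miR-144-3p at 30.0% GC, miR-32-5p at 31.8%, miR-29b-3p at 34.8% and miR-493-5p at 36.4% are among the AU-rich miRNAs that fell. The libraries also differed in this respect: the Spearman's rho between a miRNA's deviation from its PVN median and its GC content was -0.22, -0.11 and -0.16 in the HT libraries and 0.10, -0.01 and 0.20 in the HT + EA libraries, which do not overlap, and these groups also differ in depth. It was 0.19, -0.19 and 0.03 in the NC libraries and 0.03, -0.15 and 0.28 in the SEA libraries, a spread within a group as wide as that between HT and HT + EA. The part of GC content and depth in the calls was not tested.

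The third HT library was the highest of the HT libraries for 39 of the 57 lower miRNAs, beside 10 and 8 for the first and second. It was also the highest for 412 of all 891 tested miRNAs without a tie for the highest HT library (46.2%). Without it 35 of the 57 lower miRNAs remained called, against 44 to 50 without any 1 of the other libraries. For the 55 higher miRNAs the second HT + EA library was the highest of its group for 23, beside 15 and 17 for the other 2, and for 297 of all 917 tested miRNAs without a tie in that group (32.4%). Of the 55, 35, 27 and 30 remained called without HT + EA replicate 1, 2 and 3, and 48, 39 and 44 without HT replicate 1, 2 and 3. Of the 112, 36 were called in every fit that left out 1 library, 14 higher and 22 lower. In the fits without HT replicate 1, 2 or 3 the spread came wholly from all miRNAs together, and nearly so without HT + EA replicate 1. There the libraries' own spread hardly entered, so this count carries that limit.

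The same contrast in the CEA uses other libraries and was set beside these values. In the CEA 53 of 1004 miRNAs were called (5.28%), 18 higher and 35 lower, 1 of them at an adjusted p under 0.05. Without CEA HT replicate 1 the split was 29 higher and 28 lower. Of the 55 miRNAs higher in the PVN, 48 had a log2 fold change above 0 in the CEA, and of the 57 lower, 49 had one below 0, where 571 of the 938 miRNAs tested in both nuclei shared their sign. In both nuclei 25 miRNAs were called, 10 higher and 15 lower, all in the same direction. Across 389 miRNAs with at least 500 counts in the PVN, the log2 fold changes of the nuclei had a Pearson's r of 0.69 and a Spearman's rho of 0.56. The CEA values followed GC content too, with medians of -0.06, 0.03, 0.06 and 0.12 from the lowest to the highest GC range, and the median depth was 12140138 counts in the CEA HT group and 14551118 in its HT + EA group; the part of these in the likeness was not tested. The points share no library, and which rat gave which library is not stated.

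miR-223-3p had the same log2 fold change in the CEA as in the PVN, 3.0 (standard error 0.49), from 0.906, 0.912 and 0.886 CPM to 1.24, 12.5 and 10.5 CPM. The rise was thus carried by 2 of the 3 CEA libraries with EA. miR-10b-5p was at 13.5, 55.1 and 59.8 CPM in the CEA HT libraries and at 37.4, 140 and 178 CPM with EA, overlapping in the first library, which gives 1.37 in log2 (standard error 0.33). miR-200b-3p, miR-219a-5p, miR-29b-3p and miR-136-5p had log2 fold changes in the CEA of 1.53, -0.71, -0.65 and -0.52, beside 1.56, -0.94, -0.84 and -0.64 in the PVN. miR-139-5p fell by 0.35 on the log2 scale in the PVN and by 0.80 in the CEA.

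The difference of the EA effect between the nuclei was tested as an interaction over 12 libraries. It was called for 20 of 1051 miRNAs at an unadjusted p under 0.05 (1.9%) and for 0 at an adjusted p under 0.05 in edgeR's quasi-likelihood test. DESeq2 also gave 0 at an adjusted p and 6 at an unadjusted p. Among the 112 miRNAs called in the PVN, 4 had an unadjusted p under 0.05: miR-139-3p, with a difference of 0.63 (standard error 0.30) higher in the PVN, and 3 predicted miRNAs with few counts. For miR-10b-5p the difference was 0.57 (standard error 0.53), so the data neither separate the nuclei nor set them equal.

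**Figure D4:**
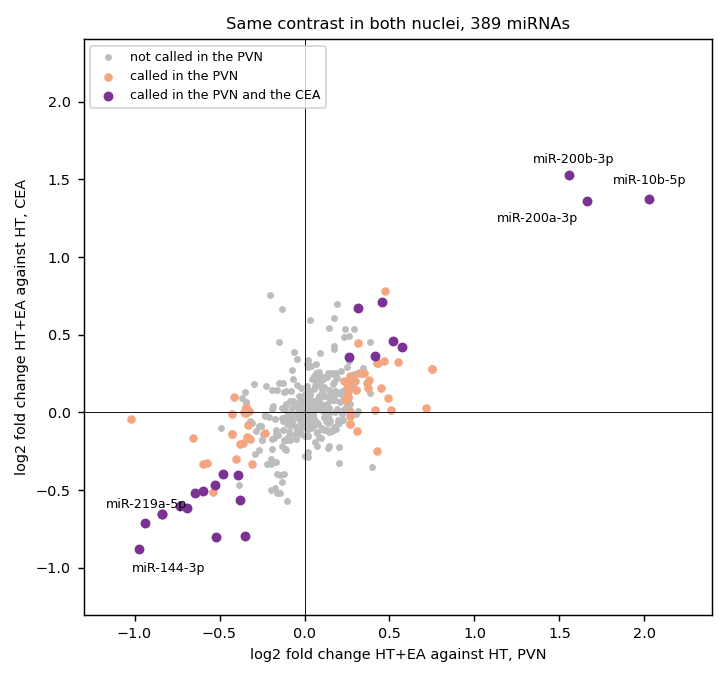
The log2 fold change of HT + EA against HT in the PVN (horizontal) and in the CEA (vertical) for 389 miRNAs with at least 500 counts in the 6 PVN libraries, with those called in the PVN in orange and those called in both nuclei in purple. The purple points lie only in the upper right and lower left, and miR-10b-5p (2.03 and 1.37), miR-200a-3p and miR-200b-3p lie far from the rest; miR-223-3p has too few counts to be drawn.

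Current was compared with needling alone by setting the HT + EA libraries against the SEA libraries. This comparison shares the HT + EA libraries with the main one, so only its own values are given. Of 994 miRNAs 71 were called (7.14%), 26 higher and 45 lower with current. The split was 44 and 42 without HT + EA replicate 3 and 38 and 31 without SEA replicate 3. miR-219a-5p was lower with current by 0.70 on the log2 scale (standard error 0.12), miR-144-3p by 0.89 (standard error 0.17), miR-493-5p by 0.58 (standard error 0.11) and miR-136-5p by 0.41 (standard error 0.09). The 2 groups overlapped for miR-493-5p and miR-136-5p and were apart for miR-219a-5p and miR-144-3p. For miR-10b-5p the log2 fold change was 1.17 and for miR-223-3p 1.15, but 1 sham library of each lay in the HT + EA range. In this fit the spread was taken wholly from all miRNAs together, so for miRNAs that vary more than most between libraries its p-values and standard errors are too small, and the 71 calls and the standard errors given here carry that limit. miR-200b-3p and miR-200a-3p had log2 fold changes of 0.21 and 0.29 against the sham group and were not called.

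miRNAs that mark one nucleus over the other in the NC rats were followed to check the dissection. The lists hold only miRNAs with at least 50 CPM in the nucleus they mark, and between 20.2% and 21.7% of the miRNAs in each level range over 10 CPM were called. The 34 miRNAs with at least a 2-fold higher level in the PVN of NC rats, without overlap, took 167100 to 186800 CPM in the HT libraries and 178600 to 194900 CPM in the HT + EA libraries, with 6 called higher and 1 lower, where 11.4% of all miRNAs were called. The 21 that were higher in the CEA of NC rats took 26890, 28610 and 26750 CPM in the HT libraries and 24090, 25610 and 23570 CPM in the HT + EA libraries. These sums do not overlap, and 4 names were higher and 6 lower, where 11.4% of all miRNAs were called. miR-338-3p with miR-3065-5p and miR-219a-2-3p with miR-219b are 1 measurement each. The list holds miR-128-3p, miR-138-5p, miR-139-5p, miR-219a-5p and miR-338-3p, all lower after EA, and miR-139-3p and miR-219a-2-3p, both higher. In the CEA the same list took 56000 to 65530 CPM in the HT group and 53220 to 59640 CPM in the HT + EA group, which overlap. The part of dissection in these calls was not tested.

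**Figure D5:**
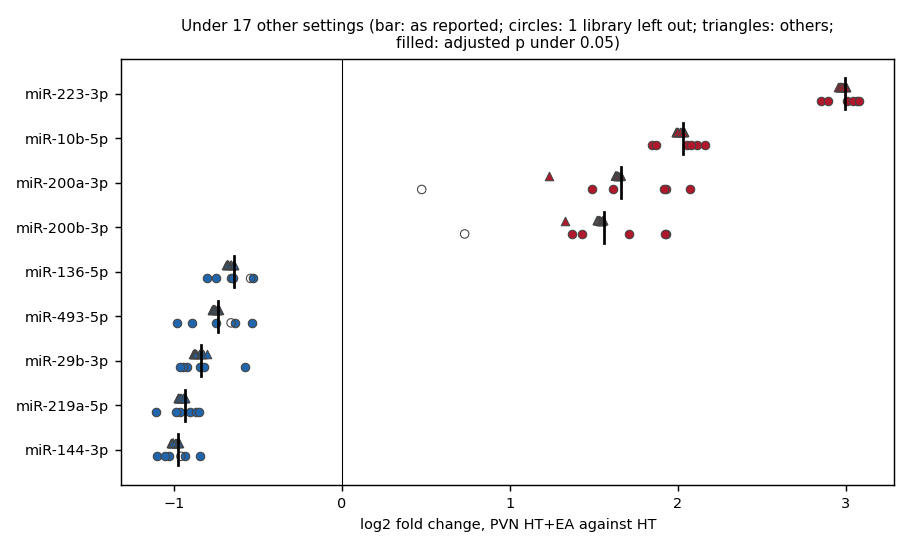
The log2 fold change of the miRNAs with an adjusted p under 0.05 (bar) and under 17 other settings, with circles for the 6 fits that left out 1 library, triangles for the other 11, and filled symbols where the adjusted p was under 0.05. miR-223-3p, miR-10b-5p and miR-219a-5p keep filled symbols throughout, whereas miR-200a-3p and miR-200b-3p drop to 0.48 and 0.73 without the second HT + EA library.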

How the data were processed

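Per the labels and methods, libraries of small RNA came from total RNA (NEBNext). The deposited table holds raw read counts per miRNA, not normalized, for 703 known and 395 predicted miRNAs. The paper's methods name HISAT2, featureCounts and the mRatBN7.2 genome for the sequencing as a whole. The sources conflict: the submitters' processing notes list human builds and the series text speaks of mouse, while the organism label and the paper say rat. How miRNA reads that match several places or strands were counted is not given in the sources used here. A further 24 columns of scaled values were not used. CPM are counts per 1000000 counted reads of the library.

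The 3 HT + EA and 3 HT libraries of the PVN were fitted with edgeR 4.0.16 (R 4.3.3): TMM, glmQLFit and glmQLFTest, on 985 miRNAs with at least 1 count, with Benjamini-Hochberg adjustment. Standard errors are the log2 fold change over the root of its F statistic. Alternatives were DESeq2 1.42.0, other scalings and filters, the replicate number as a block and leaving out each library. The fits were tested on simulated data.

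The groups, the 18 lists and the alternatives were chosen with earlier results of these data known. Named miRNAs were taken from those that had an adjusted p under 0.05, were among the 10 higher or 10 lower calls with the smallest p, at least 10 CPM and no overlap, were among up to 4 members per list, were cell markers, were other arms or seed mates of these, or were among the 5 most abundant; the rest of these are given as counts. Others were named after their values were seen: miR-139, miR-330, miR-193a, miR-193b, miR-326, miR-351, miR-125a, miR-615, miR-3556b, miR-338-3p's antisense partner and further partners, and members of genome clusters. Names with counts within 3% of each other in every library are 1 measurement; 28 pairs are so, and in 25 the names lie on opposite strands of the same place.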

Additional observations from a re-analysis of the deposited data

How the results depend on the processing

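None of the 112 calls changed sign under the 11 alternatives that kept all libraries; 69 to 104 of them stayed called, the fewest with edgeR's filterByExpr, which tested 100 of them. The number called was 80 with DESeq2 and 127 with the replicate block. The number at an adjusted p under 0.05, 10 as reported, was 16 with upper quartile scaling, 4 with filterByExpr, 3 with at least 10 counts, 4 with known miRNAs only, 6 with identical profiles counted once and 30 with the replicate block. With 1 library left out, 83 to 137 were called, 6 to 51 at an adjusted p: 6 without the second HT + EA library, 21 without the first, and 51, 38 and 39 without HT replicate 1, 2 and 3. In those last 3 fits and in the block fit the prior degrees of freedom were infinite. Without the first HT + EA library they were 732.7. In all of these fits the libraries' own spread hardly entered. The sources do not say whether the replicate numbers pair the libraries. The correlation of deviations between same-numbered HT and HT + EA libraries was 0.119, 0.0211 and 0.286, and between different numbers it ran from -0.356 to 0.257. HT + EA replicates 1 and 3 correlated best with their own number, replicate 2 with HT replicate 1. These values do not settle the pairing. miR-122-5p and miR-122b turned to 0.78 and 0.86 without HT replicate 1, and ranged down to -1.88 and -1.81 without HT replicate 3. In the CEA 53 calls became 26 with DESeq2, 22 with filterByExpr and 25 to 70 with 1 library left out (25 without the second HT + EA library). Against SEA, 71 became 47 with DESeq2. For the interaction, 0 at an adjusted p became 3 without the second CEA HT library and stayed 0 in the other fits.

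With 3 libraries a group and HT libraries less deep than all HT + EA libraries, changes of miRNAs under about 1 CPM were hardly detectable. Of 464 miRNAs under 1 CPM in both groups 12 were called, against 18 of 89 over 1000 CPM. edgeR's robust estimate of the prior, added after the data were seen for the CEA, sham and interaction fits, gave 42, 69 and 0.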
